A study of Mus musculus with 4 samples.

Results

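The 38 genes described here are a list of transcripts that cells make in response to type I interferons, listed by name as an antiviral response programme. All 38 were found in the RefSeq gene table, and 37 of them have a row among the 31053 genes of the deposited matrices; Mx2 was not analysed here. The cells are leukocytes (CD45+) sorted from B16 melanoma, a transplantable mouse skin tumour line, grown for 12 days in the right flank of male C57BL/6 mice. One set of hosts was wild-type (WT) and the other was a knock-out (KO) of ATPIF1, a small mitochondrial inhibitor of ATP synthase; the nature of the knock-out allele is not given in the sources used here. The study states 6 mice without saying whether that is per genotype, and tumour suspensions were pooled within a genotype, so each genotype is 1 library of pooled animals. No difference between genotypes can therefore be tested, no p-value is given, and every interval below covers counting error only.

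Type I interferons (interferon-beta and the interferon-alpha family) bind the receptor pair IFNAR1 and IFNAR2, which signals through JAK1 and TYK2 to a transcription factor complex that includes STAT2 and IRF9. This complex binds a DNA element called the interferon-stimulated response element (ISRE) and switches on genes that sense viral nucleic acid, block translation and replication, and tag or trap viral products. In tumours the same programme is known in dendritic cells, where it supports the priming of T cells, and in macrophages and monocytes. Many of these genes also respond to interferon-gamma, so the list names a programme and not the ligand that acted.

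Members are dispersed over the genome, with some relatives close together. Mx1 and Mx2 lie near each other on chromosome 16. The Ifit genes, whose products bind viral RNA, lie together on chromosome 19, with Ifit2 at chr19:34550550-34576534 and Ifit1 at chr19:34640889-34650009. The annotated span of Ifit1bl1, chr19:34592888-34662981, overlaps both Ifit3b and Ifit1. On chromosome 5 are 6 members (Oas1a, Oas2, Oas3, Oasl1, Oasl2 and Trafd1), and on chromosome 14 are Phf11a, Phf11b and Phf11d. Coordinates are those of GRCm38.p6, the assembly that mm10 represents. Counts of near-identical relatives (Ifit3 with Ifit3b, Phf11a with Phf11b, and the Oas1, Trim30 and Ly6 families) are uncertain, because reads shared by such copies can be dropped or split.

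Start regions of a part of the list carry the core of this element. Among 28 members with a RefSeq promoter entry (250 bases before to 50 after the annotated start), 16 (57.1%) held the ISRE core GAAANNGAAA or its reverse complement TTTCNNTTTC, against 1079 of 27025 genes with an entry (3.99%). The other motif searched was the interferon-gamma activated site TTCNNNGAA, which reads the same on both strands and can overlap the ISRE core. It was found in 5 of the 28 (17.9%), against 9.55% of all genes. A match describes letters and does not show that a factor was bound. The windows below are shown because they place the ISRE core before the start in members the results turn on. They are RefSeq sequence from GRCm38.p6, read 5′ to 3′ on the gene's own strand, and capitals mark every full match to the core.
Isg15, chr4:156200855-156200904, minus strand: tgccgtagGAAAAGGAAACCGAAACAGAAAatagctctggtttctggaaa
Ifit1, chr19:34640784-34640833, plus strand: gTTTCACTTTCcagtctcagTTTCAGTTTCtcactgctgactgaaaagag
Ifit3, chr19:34583387-34583436, plus strand: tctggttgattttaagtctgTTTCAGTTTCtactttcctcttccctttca
Ifit3b, chr19:34607783-34607832, plus strand: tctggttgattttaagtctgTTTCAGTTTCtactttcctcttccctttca
Rsad2, chr12:26456543-26456592, minus strand: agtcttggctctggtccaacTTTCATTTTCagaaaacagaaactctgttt
Oas3, chr5:120777705-120777754, minus strand: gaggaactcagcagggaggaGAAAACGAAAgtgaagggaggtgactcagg
Bst2, chr8:71537567-71537616, minus strand: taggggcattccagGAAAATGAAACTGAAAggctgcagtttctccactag
Phf11b, chr14:59341351-59341400, minus strand: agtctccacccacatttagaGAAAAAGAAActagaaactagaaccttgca
Stat2, chr10:128270256-128270305, plus strand: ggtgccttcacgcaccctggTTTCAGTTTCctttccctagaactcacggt
The Isg15 window holds 3 overlapping matches, and the Ifit3 and Ifit3b windows are the same sequence.

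**Figure D1:**
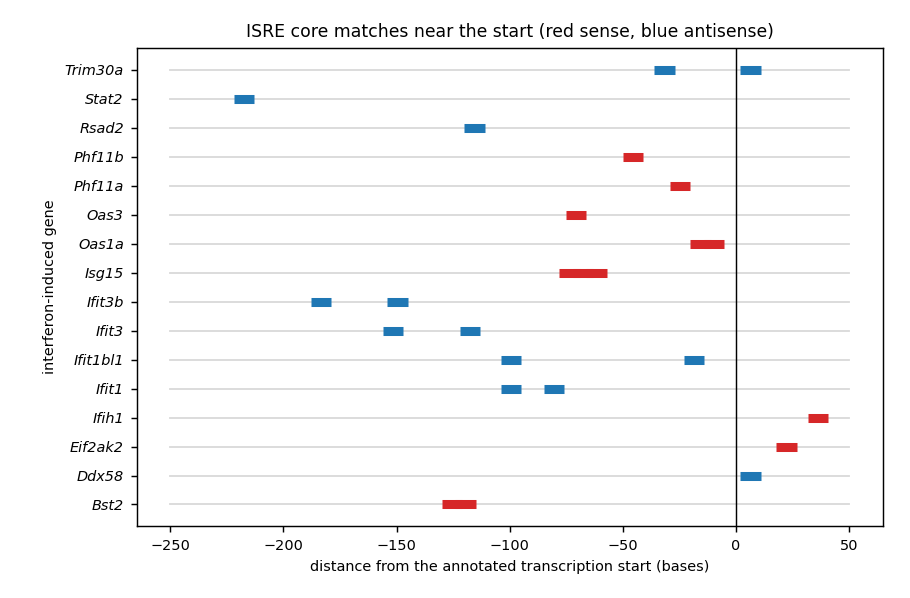
Position of each ISRE core match in bases from the annotated start, for the 16 member genes that hold one, red in sense and blue in antisense. Most matches lie before the start, with Isg15 and Bst2 carrying overlapping matches; a gene with several annotated starts has each match drawn from its own start.

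Cells were barcodes with at least 1000 UMIs (unique molecules counted), at least 500 genes and at most 10% mitochondrial UMIs, which left 4370 in the WT library and 3211 in the KO library. The libraries held 35152477 and 24385843 UMIs over all barcodes, with a median of 4314.5 and 4266 UMIs per cell, and shared 29 cell barcodes, against 19.03 expected from equal draws. Cells were named by a gate on marker genes that placed 3656 WT and 2845 KO cells in 14 types; each gated type carried its own markers. No doublet caller was run, and cells with markers of 2 lineages (589 and 231) were left out. Macrophages are monocyte or macrophage cells with at least 2 of 3 C1q complement genes detected, and monocytes are those with fewer. Neutrophils (493 WT, 22 KO) and B cells (308 and 39) were far fewer in the KO library. Atpif1 itself was at 558 CPM (counts scaled to 1000000 UMIs) in WT leukocytes and 692 in the library labelled KO, so its transcript was not lower there. Whether the counted 5′ tags lie in a part that the knock-out changes is not known. The genotype labels are those of the depositors and could not be checked by this transcript.

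UMIs of the interferon programme were found in every leukocyte type of both libraries, and the types differed in which members stood highest. Levels are given as CPM of all UMIs summed over the cells of a type, and one gene's level is compared across types, since counts of 5′ tags are not scaled between genes. Summed over the 37 members, WT plasmacytoid dendritic cells (pDC) stood at 5775 CPM (95% exact Poisson interval 5501 to 6058), regulatory T cells at 3728 (3413 to 4065), macrophages at 2820 (2784 to 2856), cDC1 at 1611 (1535 to 1690) and B cells at 1033 (952 to 1119.9). Bst2 (tetherin, which traps budding virus at the membrane) makes up most of the pDC sum: it was 4611 CPM (4367 to 4864) in WT pDC and 413 in cDC2, its next type. The 46 WT melanoma cells that passed the sort had a summed level of 258 CPM. Empty droplets, which carry free RNA of the suspension, had 2060 CPM in the WT library and 4191 in the KO library.

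Neutrophils were the highest type for 10 of 37 members in the WT library, counting types with at least 30 cells. The share of all genes led by neutrophils is not given here, so this count is not read as a trait of the list. WT neutrophils had a median of 1739 UMIs per cell. Of these 10 members, Cmpk2 and Samd9l had no type with an interval above that of the empty droplets, while the others did in neutrophils. Only Rsad2 and Oasl2 among the 10 had an interval separate from every other type. Rsad2 (viperin, which makes a chain-terminating nucleotide) was 103 CPM (84.1 to 125) in WT neutrophils and 51.1 in monocytes. Oasl2 was 113 CPM (93.3 to 137) in WT neutrophils and 38.1 in macrophages. Isg15, a ubiquitin-like protein attached to other proteins, was 531 CPM (487 to 579) in WT neutrophils and 453 (409 to 501) in migratory dendritic cells, and those intervals overlap. Neutrophils were too few in the KO library for a comparison of the genotypes.

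Ifit1 was highest in conventional CD4, other and CD8 T cells in the WT library, among types with at least 30 cells. It stood at 131 CPM (76.4 to 210.1) in conventional CD4 T cells, 76.2 (58.3 to 97.9) in other T cells and 67.9 (50.4 to 89.6) in CD8 T cells, and these 3 intervals overlap. WT macrophages had 12.5 (10.3 to 15.1) and monocytes 11.5, below each of those T cell intervals. WT regulatory T cells were near the macrophage level, at 14.5 CPM (1.76 to 52.4) on 2 UMIs. In the KO library other T cells (156 CPM) and conventional CD4 T cells (140.0) remained the highest types, and macrophages stood at 49.7 CPM (44.2 to 55.7). Ly6a (Sca-1, a surface protein) was also highest in T cells: regulatory T cells had 1124 CPM (954 to 1316) in WT and 1146 (1021 to 1281) in KO.

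The cDC1, dendritic cells known for presenting tumour antigen to CD8 T cells, led for 6 members in the WT library: Phf11a, Phf11b, Oasl1, Stat2, Mx1 and Ifi44. Phf11a was 80.9 CPM (64.6 to 100.02) in WT cDC1 and 31.1 in migratory dendritic cells, and Phf11b was 152 (130 to 178) and 102 in the same types. Oasl1, an OAS relative known to restrain translation of Irf7, was 70.4 CPM (55.3 to 88.4) in WT cDC1 and 31.7 in neutrophils. Stat2 was 65.7 CPM in WT cDC1, with an interval that overlaps those of 3 other types, pDC among them. The interval of Mx1, at 31.4 CPM, overlaps those of 4 other types. Ifi44, at 6.66 CPM on 7 UMIs, overlaps 8 other types, and no type had an interval above that of the empty droplets. Ifit1 gave 1 UMI in WT cDC1, a level of 0.952 CPM (0.0241 to 5.30).

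Macrophages led for Lgals3bp, a secreted galectin-binding glycoprotein, at 117 CPM (110 to 124) in WT and 155 (145 to 166) in KO, above every other type in both libraries. Ifi27l2a, a small membrane protein, was highest in WT regulatory T cells at 1523 CPM (1324 to 1744) and in KO monocytes at 3244 (3171 to 3319). The highest type was separate from all others by its interval for 9 of 37 members in WT and 5 of 37 in KO. In the KO library monocytes led for 11 members, macrophages for 7 and cDC1 for 6. No shares over all genes are given for these counts, nor for the cDC1 count in WT. None of them is read as a trait of the list.

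**Figure D2:**
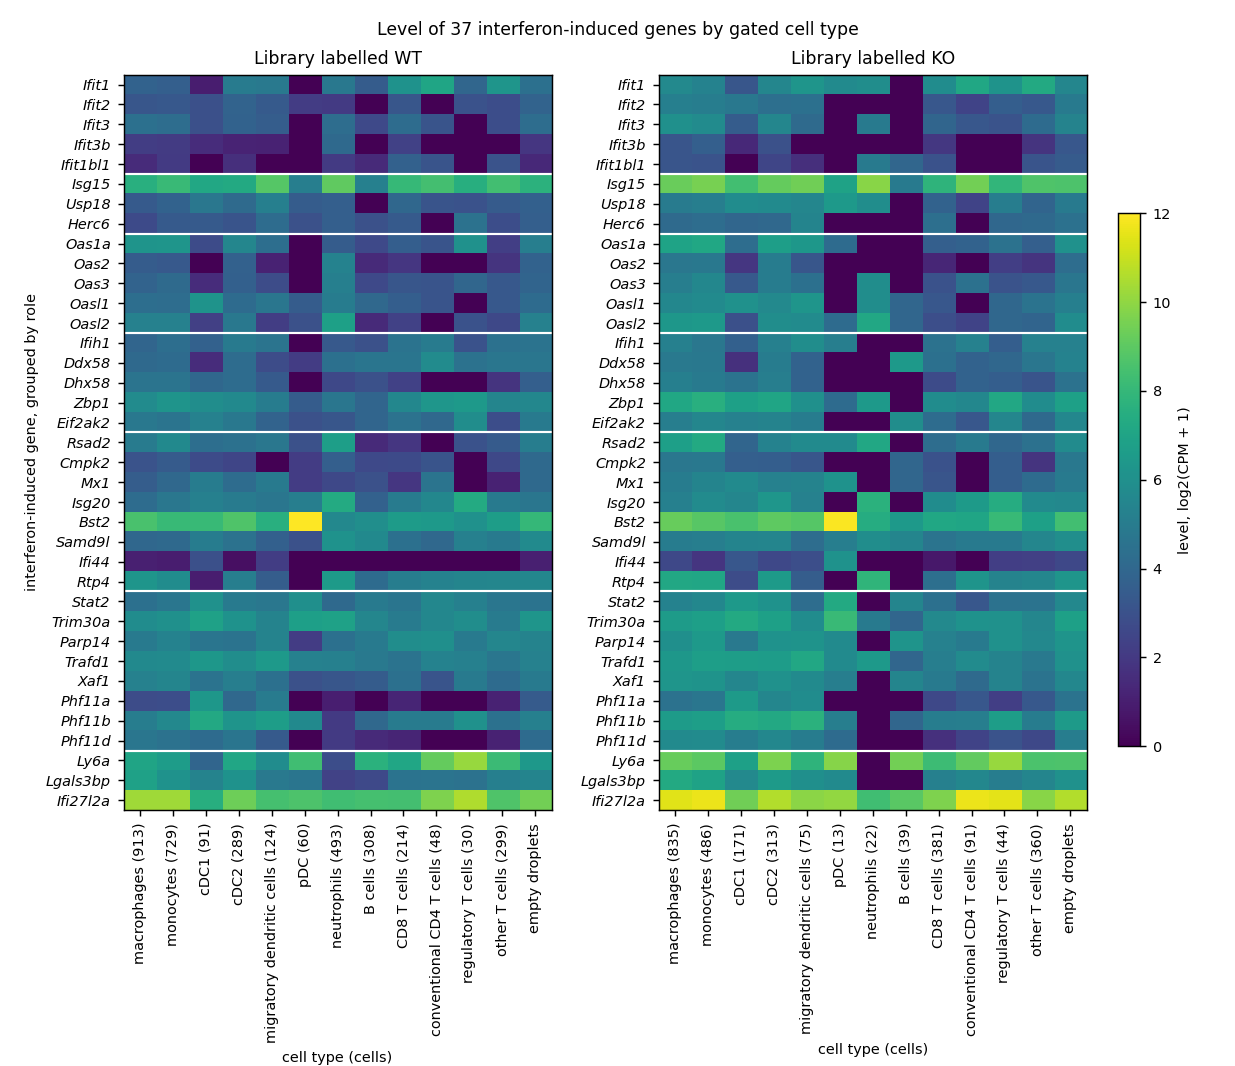
Level of each of the 37 genes as log2(CPM + 1) in each gated type of the 2 libraries, with cell numbers in brackets and empty droplets in the last column; NK cells and melanoma cells are not drawn. Bst2 is bright in pDC, Ly6a in regulatory T cells and Ifi27l2a in regulatory T cells and KO monocytes, and the KO macrophage and monocyte columns are brighter than the WT ones in most rows.

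In macrophages, 35 of 37 members were at least 1.5-fold higher in the KO library and none was 1.5-fold lower. Over all 10639 genes with at least 20 UMIs in macrophages, 7.38% were as much higher and 7.8% as much lower. The median member stood at a log2 ratio of KO over WT of 1.26, with a median lower bound of 0.98 and a median upper bound of 1.55, while the median of all genes was -0.021. All 37 intervals lay above 0. The share of all genes with such an interval is not given here, so this count is not set against other genes. The sum of the 37 was 2820 CPM in WT and 6454 in KO macrophages, a log2 ratio of 1.19 (1.17 to 1.22). Without the 4 most abundant members (Ifi27l2a, Isg15, Bst2 and Ly6a) the sum of the other 33 was 884 and 1854 CPM, a log2 ratio of 1.07.

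The members largest by the bound nearest 0 in macrophages were Ly6a, Ifit2 and Ifit1. Ly6a was 126 CPM in WT (1079 UMIs) and 589.7 in KO (3537 UMIs), a log2 ratio of 2.23 (2.13 to 2.32). Ifit2 was 8.18 CPM (70 UMIs) and 34.7 (208 UMIs), a log2 ratio of 2.08 (1.69 to 2.50). Ifit1 was 12.5 CPM (107 UMIs) and 49.7 (298 UMIs), a log2 ratio of 1.99 (1.67 to 2.32). The Ifit family as a whole had log2 ratios from 1.19 to 2.19 in macrophages, all 5 above 1.5-fold. The ISG15 system (Isg15, its protease Usp18 and the ligase Herc6) was between 1.62 and 1.69, with Isg15 at 189 CPM in WT and 608 in KO.

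The OAS family, which makes or resembles the enzymes that make the 2′-5′ oligoadenylate activator of RNase L, ranged from 0.75 (Oas1a) to 1.36 (Oas2) in macrophages. The antiviral effectors ranged from 0.66 for Bst2 to 2.30 for Ifi44, which had only 9 and 31 UMIs. Rsad2 was 30.9 CPM in WT and 107 in KO macrophages, a log2 ratio of 1.80. Cmpk2, a mitochondrial nucleotide kinase next to Rsad2, was at 1.84. Mx1, annotated in RefSeq as a transcribed pseudogene in this reference strain, was at 1.60. The nucleic acid sensors had the smallest median of the role groups with 5 or more members, 0.77: Ifih1 (MDA5) and Zbp1 stood at 1.37, Ddx58 (RIG-I) at 0.77 and Dhx58 (LGP2) at 0.61. The 2 members under 1.5-fold were Eif2ak2 (PKR, which halts translation), at 0.38 (0.10 to 0.66), and Lgals3bp, at 0.41 (0.28 to 0.54).

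Monocytes had the same pattern. Of the 36 members measured there, 34 were at least 1.5-fold higher in KO, against 10.4% of 9254 genes, and none was 1.5-fold lower, against 8.06%. The median log2 ratio was 1.28, with median bounds of 0.85 and 1.55, and that of all genes was 0.054. Ly6a led at 97.6 CPM in WT and 510.1 in KO, a log2 ratio of 2.39 (2.22 to 2.55). Rsad2 was 51.1 and 155 CPM, a log2 ratio of 1.60 (1.36 to 1.85), and Phf11a was 6.10 and 24.8 CPM (26 and 57 UMIs), a log2 ratio of 2.02 (1.33 to 2.75). Ifih1 at 0.40 (-0.11 to 0.90) and Dhx58 at 0.34 (-0.13 to 0.79), both cytoplasmic RNA sensors, were under 1.5-fold with intervals that include 0. Across the 36 members measured in both types, the log2 ratios of macrophages and monocytes had a Pearson r of 0.74 and a Spearman rho of 0.76; the points share the same pair of libraries.

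Several measures moved with the genotype in these cells, and their part in the difference was not tested. The share of free RNA, estimated from melanoma and haemoglobin transcripts, was 2.05% of UMIs in WT and 6.25% in KO macrophages, and 1.63% and 4.05% in monocytes. With the empty-droplet profile subtracted at those shares, the median log2 ratio was 1.28 in both types. Median depth was 8330 UMIs in WT and 6258 in KO macrophages. Neutrophil transcripts were at 76.7 CPM in WT and 53.2 in KO macrophages. The immediate early and stress genes were at 4255 and 4798 CPM in macrophages and at 8858 and 7517 in monocytes.

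Macrophages also differed in makeup. Those with a UMI of Ly6c2, a marker of recent monocyte origin, were 11.2% of WT macrophages (102 cells) and 30.4% of KO macrophages (254 cells). Within them the members' median log2 ratio was 0.43 and 14 of 37 were at least 1.5-fold higher, against 11.8% of all genes measured there. Among macrophages with no Ly6c2 UMI it was 1.09, and 31 of 36 were, against 6.91%. In monocytes the split gave 1.01 with a Ly6c2 UMI and 1.17 without. These subsets were chosen after the data were seen, and Ly6c2 is itself known to respond to interferon.

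**Figure D3:**
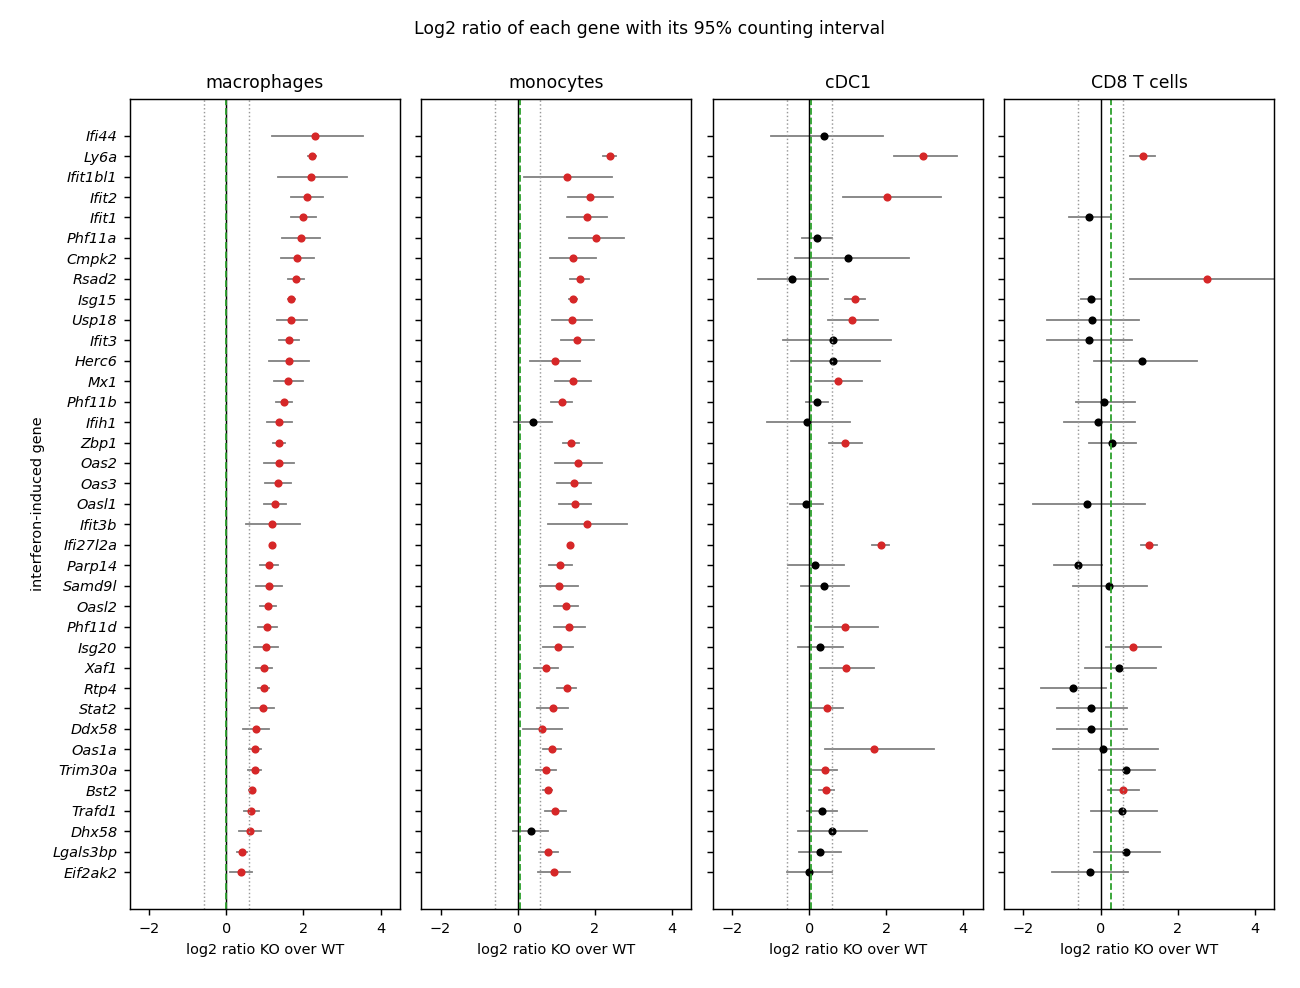
Log2 ratio of KO over WT for each gene in 4 types, ordered by the macrophage value, with lines for the 95% counting interval (drawn to the axis limits); red points have intervals above 0 and black points include 0. The solid line is at 0, the green dashed line is the median of all genes in the type, and the dotted lines are at 1.5-fold: all macrophage points lie right of 0, and CD8 T cell points scatter around it.

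**Figure D4:**
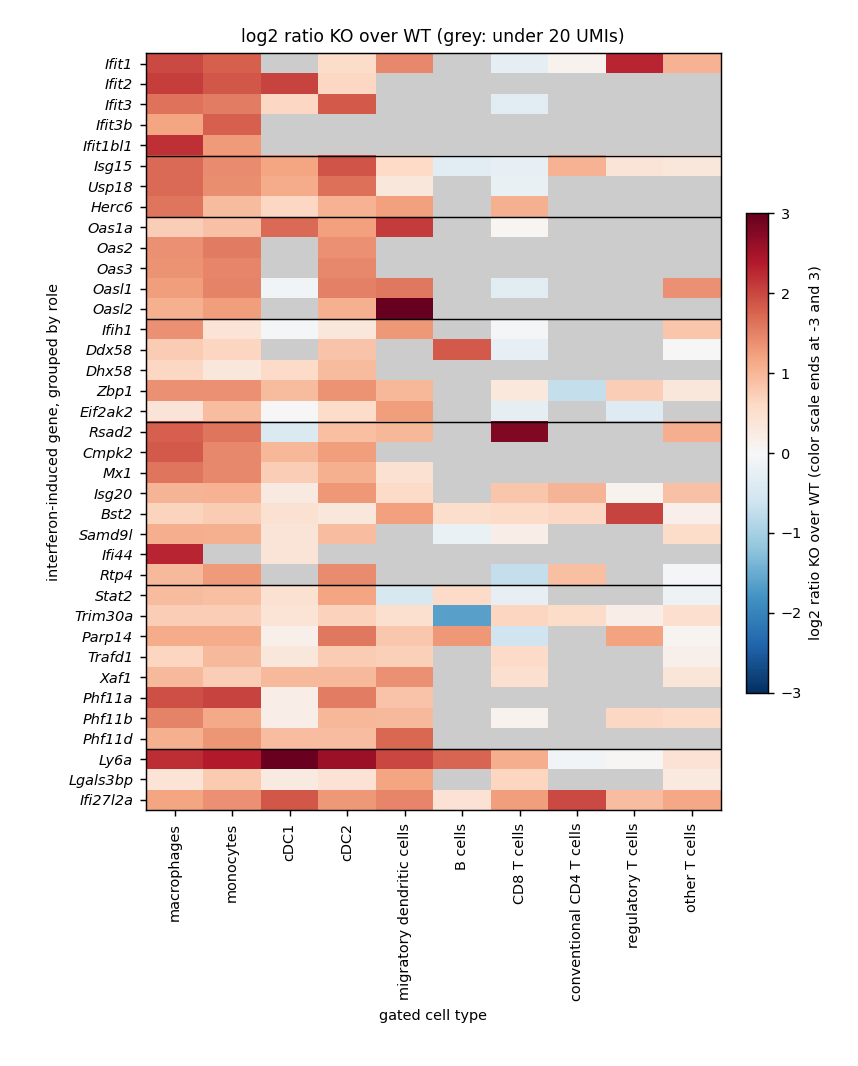
Log2 ratio of KO over WT for each gene (rows, grouped by role) in the 10 types with at least 30 cells in each library, with grey where a gene had under 20 UMIs. The macrophage, monocyte and cDC2 columns are red in nearly every row, the CD8 T cell column holds both colours, and the conventional CD4 and regulatory T cell columns are grey in most rows.

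Dendritic cells differed from each other. In cDC2, which present antigen to CD4 T cells, 29 of 34 measured members were at least 1.5-fold higher in KO, against 7.28% of 8821 genes, and none lower, against 8.82%. The median was 1.07, and that of all genes was -0.017. Ly6a was 135 CPM in WT and 795 in KO cDC2, a log2 ratio of 2.56 (2.38 to 2.73). Isg15 was 156 and 575 CPM, at 1.88 (1.71 to 2.05), and Ifit3 was 12.6 and 45.03 CPM, at 1.83 (1.24 to 2.47). Bst2 was 413 and 524 CPM, a log2 ratio of 0.34 (0.22 to 0.46). The cDC2 gate also held monocyte or macrophage markers, at 1729 CPM in WT and 1745 in KO over 12 markers.

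In cDC1, 13 of 29 measured members were at least 1.5-fold higher in KO, against 10.7% of 7572 genes, and none was 1.5-fold lower, against 7.36%. The median was 0.46, with median bounds of -0.085 and 1.36, and that of all genes was 0.042. Ly6a was 14.3 CPM in WT (15 UMIs) and 111 in KO (205 UMIs), a log2 ratio of 2.96 (2.21 to 3.82). Ifi27l2a was 185 and 668 CPM, at 1.86 (1.64 to 2.08), and Isg15 was 148 and 334 CPM, at 1.18 (0.92 to 1.44). Of the 6 members for which cDC1 was the leading WT type, Phf11a at 0.21 (-0.18 to 0.60), Phf11b at 0.19 (-0.085 to 0.48), Oasl1 at -0.078 (-0.51 to 0.36) and Ifi44 at 0.38 (-0.98 to 1.90) had intervals that include 0. The others were Stat2, at 0.46 (0.042 to 0.88), and Mx1, at 0.74 (0.16 to 1.36). These 6 members were picked by their WT cDC1 level, which is also the denominator of the ratio. That choice can pull the ratio down, so these values do not show that members led by cDC1 differ less. Rsad2 was 19.0 and 14.1 CPM in cDC1, at -0.43 (-1.33 to 0.49).

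Migratory dendritic cells, which have matured and express Ccr7, had 20 of 25 measured members at least 1.5-fold higher in KO, against 13.4% of 5451 genes, and none lower, against 14%. Their median was 1.19, and that of all genes was -0.0018. Oasl2 had 3 UMIs in WT and 26 in KO, a log2 ratio of 3.92 (2.22 to 6.29). Ly6a was 56.2 and 224 CPM, at 1.99 (1.49 to 2.52), and Ifi27l2a was 353 and 978 CPM, at 1.47 (1.26 to 1.69). Stat2, with 22 and 9 UMIs, was at -0.48 (-1.79 to 0.69). Free RNA was estimated at 1.14% of UMIs in WT and 7.07% in KO, and only 75 KO cells were gated. With each cell thinned to 1000 UMIs, which leaves fewer members above 20 UMIs, the members at least 1.5-fold higher were 15 of 21 in cDC2 (12.7% of all genes thinned likewise), 5 of 10 in cDC1 (16.4%) and 3 of 5 in migratory dendritic cells (13%).

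In CD8 T cells, the cells that kill tumour targets, the list did not stand out by UMIs summed over cells. At least 1.5-fold higher in KO were 7 of 25 measured members, near the 29.7% of all 6871 genes, and 2 were 1.5-fold lower, against 6.99%. The median member was at 0.10, below the median of all genes at 0.27. Ifi27l2a was 344 CPM in WT and 823 in KO, a log2 ratio of 1.26 (1.06 to 1.46). Ly6a was 139 and 295 CPM, at 1.09 (0.78 to 1.42), and Rsad2 had 2 and 26 UMIs, at 2.77 (0.77 to 5.89). The 2 lower members were Rtp4, a chaperone of membrane receptors, at -0.71 (-1.55 to 0.14), and Parp14, an ADP-ribosyltransferase, at -0.59 (-1.21 to 0.026). Isg15 was 266 and 224 CPM, at -0.25 (-0.51 to 0.015), and Ifit1 was 67.9 and 55.6 CPM, at -0.29 (-0.82 to 0.25).

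The summed level in CD8 T cells was 1441 CPM in WT and 2143 in KO, a log2 ratio of 0.57, and without the 4 most abundant members it was 599 and 660.4 CPM, at 0.14 (-0.025 to 0.31). Neutrophil transcripts stood at 103 CPM in WT CD8 T cells and 12.1 in KO, and their part was not tested. Across the 25 members measured in both types, the log2 ratios of macrophages and CD8 T cells had a Pearson r of 0.18 and a Spearman rho of 0.0062.

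Conventional CD4 T cells, regulatory T cells and B cells had few measurable members. Conventional CD4 T cells had 5 of 9 at least 1.5-fold higher (22.6% of 2197 genes) and 1 lower (10.2%). With each cell thinned to 1000 UMIs it was 2 of 4 (20.1%), and in CD8 T cells 4 of 10 (24.4%). In conventional CD4 T cells Ifi27l2a was 818 CPM in WT and 3204 in KO, at 1.97 (1.67 to 2.28). Isg15 in these cells was 340 and 696 CPM, at 1.04 (0.55 to 1.55), and Bst2 had 11 and 31 UMIs, at 0.63 (-0.40 to 1.77). Zbp1, a sensor of Z-form nucleic acid, was lower, at -0.73 (-2.10 to 0.67) on 10 and 11 UMIs, and Ly6a was at -0.081 (-0.50 to 0.35). Regulatory T cells had 6 of 11 higher (14.6% of 2772 genes) and none lower (15.4%). Bst2 there was 65.3 and 268 CPM (9 and 72 UMIs), at 2.04 (1.03 to 3.22), Ifi27l2a was at 0.94 (0.72 to 1.16), and Ifit1, with 2 and 19 UMIs, at 2.28 (0.23 to 5.43).

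The remaining T cells, with neither class called, had 6 of 20 members at least 1.5-fold higher (13.8% of 6123 genes) and none lower (8.53%), led by Ifi27l2a at 1.16 (0.97 to 1.35), Ifit1 at 1.03 (0.58 to 1.499) and Ly6a at 0.42 (0.17 to 0.68). B cells had 3 of 9 higher (17.9% of 3761 genes) and 1 lower (23.8%), on 39 KO cells. Ly6a in B cells was 203 CPM in WT and 685 in KO, at 1.75 (1.23 to 2.25). Ddx58 was at 1.85 on 14 and 6 UMIs, and Bst2 at 0.53 on 35 and 6. Trim30a, a negative regulator of innate signalling, had 26 and 1 UMIs, at -1.63 (-6.99 to 0.98).

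Per cell, KO macrophages held more UMIs of the 37 genes at the median and at the 90th percentile, while the highest cell held 51 UMIs in WT and 50 in KO. With each cell thinned to 1000 UMIs, the WT macrophage held a median of 2 UMIs of the 37 genes and the KO macrophage 5, and the 90th percentile was 7 and 18. Cells with none of these UMIs were 24.4% of WT macrophages (95% Clopper-Pearson interval 21.7 to 27.3) and 10.2% of KO (8.21 to 12.4); before thinning these were 2.19% and 0.599%. Cells with at least 10 were 7.12% (5.54 to 8.98) and 27.3% (24.3 to 30.5). In monocytes the median was 1 and 4, and cells with at least 10 were 5.90% and 28.0%. CD8 T cells with at least 10 were 0.467% in WT and 2.89% in KO. Without the 4 most abundant members, CD8 T cells with at least 3 UMIs of the other 33 were 5.61% (2.93 to 9.59) and 5.25% (3.24 to 7.99). B cells with at least 10 were 0 of 308 and 0 of 39, which at 95% leaves a share of up to 1.19% and 9.03%.

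Isg15 and the Ifit genes were often found in the same cells of macrophages and monocytes. Among thinned WT macrophages with a UMI of Ifit1, Ifit2 or Ifit3, 65.5% (45.7 to 82.1, 29 cells) also had an Isg15 UMI, against 11.9% (9.82 to 14.2) of those without. In KO macrophages these shares were 74.7% (64.0 to 83.6, 83 cells) and 23.9% (20.9 to 27.2). Monocytes had 78.9% and 16.3% in WT, and 83.8% and 29.0% in KO. Over the 18 pairs of a type and a library, the Isg15 share was higher in cells with an Ifit UMI in 17. The Ly6a share was higher in 12 pairs, that of Rsad2 in 11 and that of Bst2 in 10. Some pairs rest on very few cells with an Ifit UMI, such as 2 WT and 5 KO cDC1.

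**Figure D5:**
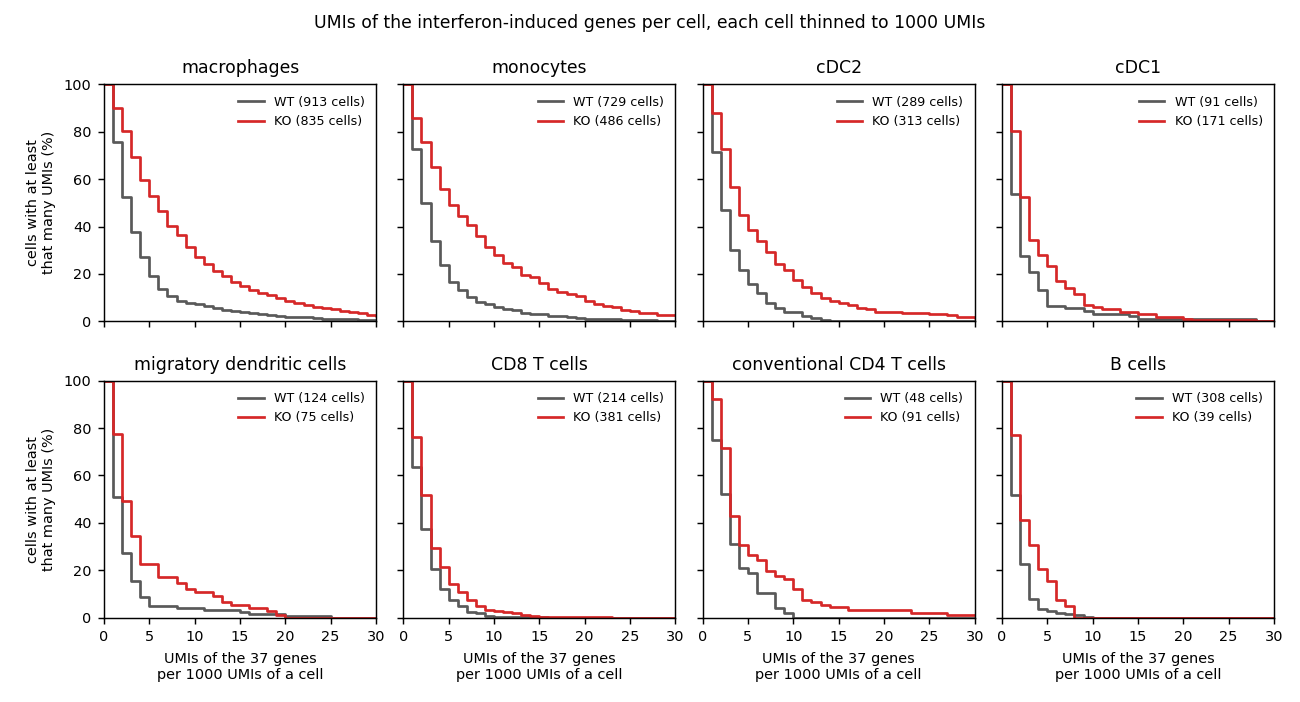
Share of cells (%) with at least the given number of UMIs of the 37 genes after each cell was thinned to 1000 UMIs, in 8 types, with WT in grey and KO in red. The KO curves of macrophages, monocytes and cDC2 lie above WT over most of the range, with 27.3% against 7.12% of macrophages at 10 UMIs or more.

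Few UMIs of the ligands were counted: of 18 type I interferon genes in the matrices, 9 had a UMI in WT cells and 8 in KO cells, with 106 and 34 UMIs in all. Reads shared between genes of the interferon-alpha family can be dropped, so low counts do not show that a ligand was absent. Ifnb1 gave 77 UMIs in 14 WT cells and 19 in 7 KO cells. In macrophages it gave 56 UMIs in 6 WT cells, 33 of them in a single cell, and 6 UMIs in 2 KO cells. The 2 type I receptor genes in macrophages had log2 ratios near 0: Ifnar1 -0.017 (-0.20 to 0.17) and Ifnar2 0.00022 (-0.12 to 0.12). Among all 9 listed receptors and signal transducers, log2 ratios in macrophages ran from -0.095 to 1.32. Of these 9, 2 were at least 1.5-fold higher in KO macrophages (7.38% of all genes). None was as much lower (7.8%).

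Of 13 sensors and inducers, 2 were at least 1.5-fold higher in KO macrophages and none lower: Irf7, the factor that amplifies interferon-alpha production, at 79.7 and 182 CPM, a log2 ratio of 1.19 (1.05 to 1.33), and Ikbke at 0.85. Of 6 negative regulators, 1 was higher, Socs1 at 0.74, and Socs3 was at -0.39. Both shares are to be read against all genes in macrophages, of which 7.38% were as much higher and 7.8% as much lower. The higher counts rest on 3 genes. In monocytes 1 of 12 sensors and inducers was higher, Irf7 at 1.08, and 1 was lower. Of 6 negative regulators in monocytes, 2 were higher and 1 was lower, Socs3 at -1.24 (-1.40 to -1.07). Over all genes in monocytes 10.4% were as much higher and 8.06% as much lower. In CD8 T cells 1 of 6 negative regulators was higher (29.7% of all genes) and 2 were lower (6.99%). The lower ones were Socs1 at -1.37 (-1.64 to -1.10) and Socs3 at -1.49 (-1.79 to -1.19).

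Genes known to prefer interferon-gamma were also higher in KO macrophages, monocytes and cDC2. In macrophages 12 of 14 were at least 1.5-fold higher in KO (7.38% of all genes) and 1 lower (7.8%), with a median log2 ratio of 1.39. Cxcl9, a chemokine for T cells, was 9.001 CPM in WT and 165 in KO, a log2 ratio of 4.19 (3.86 to 4.55). Iigp1, an immunity-related GTPase, was at 4.42 (3.45 to 5.58), and Serpina3g, a protease inhibitor, at 3.23 (2.53 to 4.01). Nos2, the inducible nitric oxide synthase, was lower, at -1.62 (-2.45 to -0.87). In monocytes 12 of 14 were higher (10.4% of all genes) and 1 lower (8.06%), with a median of 1.31. In cDC2 12 of 13 were higher (7.28%) and none lower (8.82%), with a median of 1.81. In cDC1 5 of 9 were higher (10.7%) and none lower (7.36%), and in migratory dendritic cells 3 of 7 (13.4%) and none (14%), with a median of 0.14. In CD8 T cells 1 of 11 was higher (29.7%) and 5 were lower (6.99%), with a median of -0.19. The part of interferon-gamma in the members' difference was not tested.

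Members with and without the ISRE core overlapped in the size of the difference. The 16 members with a match had a median log2 ratio of 1.36 in macrophages (0.38 to 2.19), and the 12 with an entry but no match had 1.08 (0.41 to 2.30). In monocytes the medians were 1.21 over 16 genes and 1.07 over 11, and in cDC2 0.95 over 14 and 0.97 over 11. Isg15, whose window shown above holds 3 matches, was at 1.69 in macrophages, and Bst2, with 2, was at 0.66.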

How the data were processed

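Single-cell 5′ libraries of sorted tumour leukocytes (10x chemistry) were deposited as unfiltered UMI count matrices of 737280 barcodes and 31053 genes; the authors made these counts with Cell Ranger 3.1.0 on mm10, per the submitters' processing notes and the file headers. The annotation release is not given in the sources used here. The 2 T cell receptor libraries were not used here. Members, marker lists and pathway lists were chosen with earlier results of these data known. Cells were gated by the list with the largest share of detected markers (at least 2), and cells whose second lineage reached 50% of that share were left out; the gate's scoring and the 30-cell minimum were set after marker histograms and cell numbers were seen. UMIs were summed per type and library (no normalization beyond CPM). Levels have exact Poisson intervals, ratios exact conditional binomial intervals and shares Clopper-Pearson intervals, all 95%. PCR duplicates are removed by UMIs, but cells of a library are not replicates, so intervals cover counting error only. A gene needed 20 UMIs over both libraries, and a floor of 3 counts stood in for 0. Named members were those with the 3 largest bounds nearest 0 in a type, every member at least 1.5-fold against the type's median direction, and each member in its highest type. Free RNA was estimated from droplets of 10 to 100 UMIs. One gene of the pathway lists is not reported here. The computation was tested on simulated data. Tools were Python 3.11.15, numpy 2.4.6, scipy 1.17.1, pandas 2.3.3 and matplotlib 3.10.9.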

Additional observations from a re-analysis of the deposited data

How the results depend on the processing

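No paired analysis was possible because each genotype is 1 library of pooled mice; leaving out a replicate was likewise not possible. Across 11 alternatives the median log2 ratio stayed between 1.06 and 1.38 in cDC2, 1.00 and 1.204 in migratory dendritic cells, 0.41 and 0.97 in cDC1, 0.47 and 0.84 in conventional CD4 T cells, 0.046 and 1.10 in B cells, and -0.17 and 0.69 in CD8 T cells, where centring on all genes gave the lowest value and turned the median from 0.10 to -0.17. With the 3 alternatives added after the data were seen, it was 0.43 to 1.49 in macrophages and 1.01 to 1.39 in monocytes. The 0.43 came from macrophages with a Ly6c2 UMI, where 14 members were at least 1.5-fold higher and Isg20 (-0.22) and Dhx58 (-0.28) turned lower. Of 2302 single values under the alternatives, 2174 moved by less than their interval, 126 moved further and 2 that were past 1.5-fold changed sign; with smaller values included, 38 changed sign.

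Counts of members past 1.5-fold were less stable where UMIs were few. Where no share over all genes is printed beside a count, the count is not read as a result about the members. With each cell thinned to 1000 UMIs, which leaves fewer members over 20 UMIs, the higher count was 15 of 21 in cDC2 (12.7% of all genes thinned likewise), 5 of 10 in cDC1 (16.4%), 3 of 5 in migratory dendritic cells (13%), 4 of 10 in CD8 T cells (24.4%) and 2 of 4 in conventional CD4 T cells (20.1%). In CD8 T cells it was 13 by the mean of each cell's share and 4 after centring. No share over all genes is given for these settings, so whether the list stood out under them is not known. The lower count in CD8 T cells was 8 of 31 measured with cells of 2 lineages kept and 1 of 26 with at least 3 markers. It was 0 of 22 with at least 2000 UMIs and 800 genes, and 0 of 24 with at most 5% mitochondrial UMIs. The cause was not tested. A minimum of 50 UMIs gave 13 higher in migratory dendritic cells, 2 in conventional CD4 T cells and 1 in B cells. In B cells 7 of 13 measured were higher with cells of 2 lineages kept, and 5 were higher at a minimum of 10 UMIs. With at least 2000 UMIs and 800 genes, 3 of 6 measured were higher in conventional CD4 T cells and 1 of 2 in B cells. The lower count, 1 in B cells and in conventional CD4 T cells in the report, ranged from 0 to 2 and from 0 to 3 over the alternatives, and the 0 of cDC1, cDC2 and migratory dendritic cells reached 1. The 39 KO B cells, 22 KO neutrophils and 13 KO pDC limit what can be said of those types.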
